A study of Mus musculus with 22 samples.

Results

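Genes for matrix metalloproteinases and their tissue inhibitors were followed in colonic tissue of mice before and during colitis caused by dextran sodium sulfate (DSS). They are 8 proteases, Mmp2, Mmp3, Mmp7, Mmp9, Mmp10, Mmp12, Mmp13 and Mmp14, and 2 inhibitors, Timp1 and Timp3. The list was chosen with earlier results of these data known, so counts of its members beside all genes are a description and not a test. All 10 were found by gene symbol among the 18194 genes with a probe set of their own, on 17 probe sets. The value used for a gene is that of its probe set with the largest interquartile range over the 22 arrays. All mice carried floxed Pparg alleles (PPAR γ flfl). In VC+ mice a Cre recombinase driven by the villin promoter removes PPAR γ from the epithelium of the intestine, and cells of the stroma, muscle and blood keep it. VC- mice lack Cre and keep PPAR γ throughout. Mice received 2.5% DSS in the drinking water for 2 or 7 days, and day 0 is without DSS. There were 3, 5 and 4 arrays of VC+ mice at days 0, 2 and 7, and 3, 3 and 4 arrays of VC- mice. Neither age nor strain is given for single arrays, and the study's methods describe a mixed FVB/C57BL/6 colony beside a backcrossed C57BL/6 line.

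Matrix metalloproteinases are zinc proteases that cut collagens, proteoglycans and other proteins around cells, and that also trim chemokines and cytokines. Most are secreted as inactive proenzymes and are opened by other proteases, plasmin and other metalloproteinases among them. TIMP proteins bind the open enzyme and block it. In the inflamed gut most of these enzymes come from stromal cells and leukocytes, whereas Mmp7 is an epithelial enzyme that Paneth cells of the mouse small intestine use to activate defensins. PPAR γ is a nuclear receptor that restrains inflammatory gene expression.

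Values are log2 signals after GC-RMA, so a difference of 1 is a doubling of signal. They ran from 0.58 to 16.76 with array medians of 3.41 to 3.55. A gene is called low in a group where every array was under its own median. Whole-tissue Pparg was 8.50 to 8.83 in VC+ and 9.58 to 9.63 in VC- mice at day 0, 6.87 to 9.54 and 9.87 to 10.96 at day 2, and 6.26 to 10.35 and 7.39 to 9.82 at day 7, so the genotypes overlapped at day 7. The tissue is labelled mucosa. The mean of 10 colonocyte markers was 10.64 to 13.82, the mean of 8 smooth muscle markers 9.26 to 11.64, and the mean of 7 squamous markers, 5 of which were low on all arrays, 3.27 to 3.57. Prss2, a pancreatic trypsinogen, was 11.20 on VC+ day 7 replicate 4, 14.74 on VC- day 7 replicate 2 and 13.77 on VC- day 0 replicate 3, while the remaining 19 arrays had 3.27 to 4.20. Xist marks females and was at 11.45 to 11.90 on 6 of the 14 arrays from before day 7, and at 2.03 to 2.08 on the 8 arrays of day 7. Nothing in the labels says that each array is a separate mouse, so p-values measure the spread between these samples.

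At day 7 of DSS the stromelysins Mmp3 and Mmp10, the collagenase Mmp13 and the inhibitor Timp1 were higher than at day 0 in both genotypes, and Mmp2 passed the test in VC- mice only. With limma (two-sided, Benjamini-Hochberg adjustment over 9097 genes, threshold 0.05), 4 of the 9 members that passed the variance filter rose in VC+ mice, where 1.32% of all genes tested rose. In VC- mice 5 of the 9 rose, beside 5.53% of all genes tested. None of the 9 fell. All day 7 arrays lay above all day 0 arrays for 7 of the 9 in VC+ and 6 of the 9 in VC- mice, beside 9.61% and 8.62% of all genes tested. The median log2 fold change of the 9 was 1.94 in VC+ and 3.38 in VC- mice, and that of all genes tested -0.02 and -0.09. Mmp9 did not pass the filter, and without the filter it was not called. The VC+ count was 2 (Mmp3 and Timp1) when only the groups compared were fitted, and the VC- count was 0 in that fit and 8 without VC- day 7 replicate 1. The difference between genotypes in the response of Mmp2 was not called (log2 difference -1.95 with an SE of 1.14, limma adjusted p = 0.62).

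**Figure D1:**
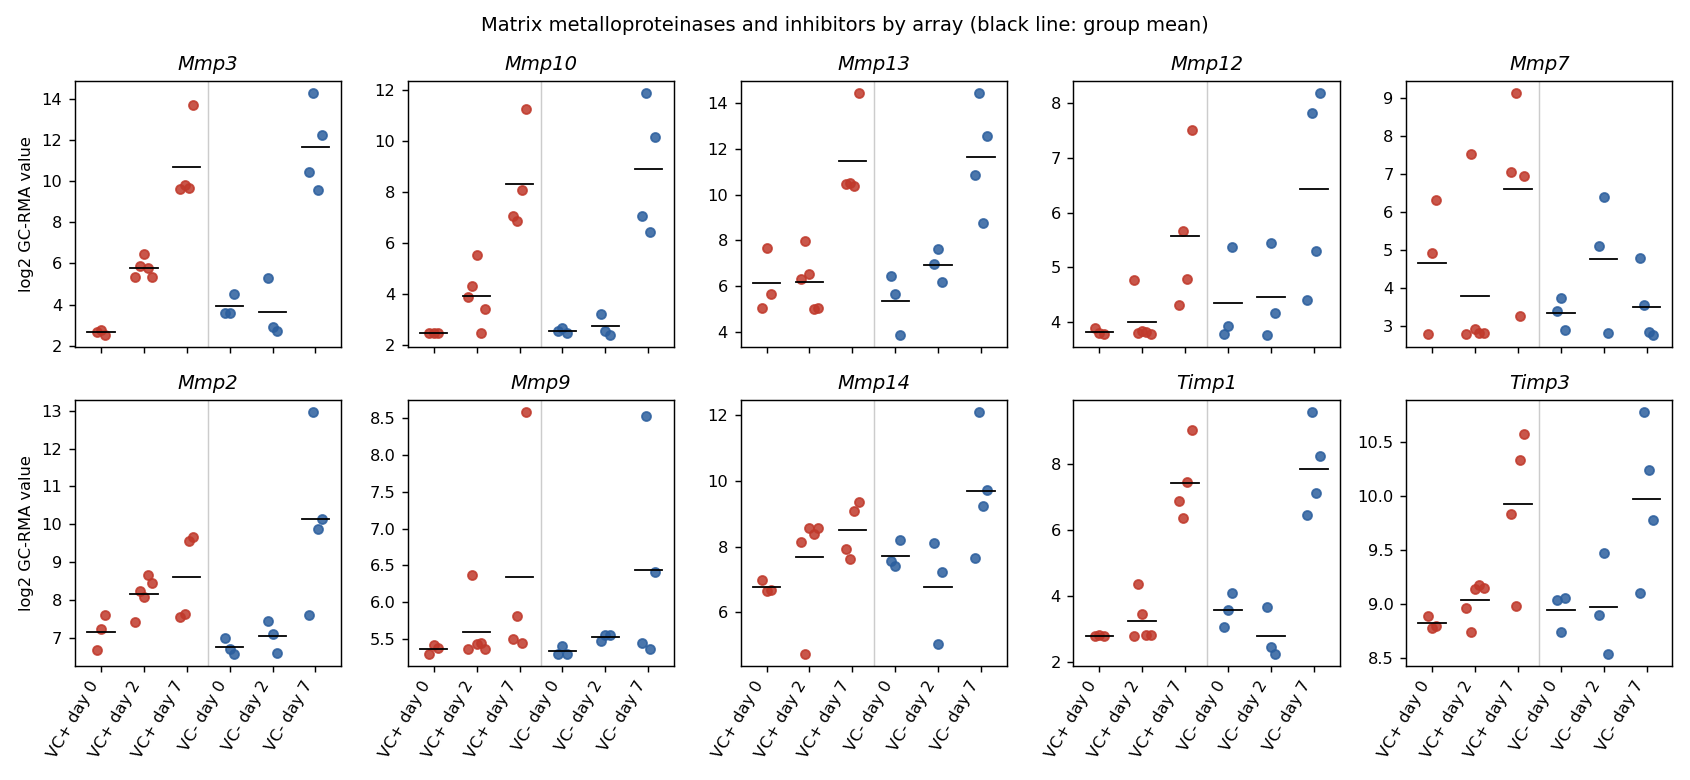
Each panel plots the log2 GC-RMA value (y axis) of 1 gene on the 22 arrays, grouped along the x axis by genotype and day (VC+ red, VC- blue), with a black line at the group mean. In Mmp3, Mmp10, Mmp13 and Timp1 all day 7 arrays of a genotype lie above all its day 0 arrays, while the single highest day 7 points belong in most panels to VC+ replicate 4 and VC- replicate 2.

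Of the 10 genes, 5 lie on chromosome 9, in the order Mmp13, Mmp12, Mmp3, Mmp10, Mmp7, among 10 metalloproteinase genes that RefSeq places next to each other there. Their promoters are shown because these 5 include the 3 proteases that rose in both genotypes, and because each holds a match to TGANTCA, the site bound by AP-1 (Fos and Jun proteins). The 130 bases before the annotated start of transcription (RefSeq on GRCm38.p6), all on the plus strand, with the match in capitals, read as follows.
Mmp3, chr9:7445692-7445821: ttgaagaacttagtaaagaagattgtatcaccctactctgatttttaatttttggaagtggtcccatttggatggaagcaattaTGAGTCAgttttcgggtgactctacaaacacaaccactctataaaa
Mmp10, chr9:7502212-7502341: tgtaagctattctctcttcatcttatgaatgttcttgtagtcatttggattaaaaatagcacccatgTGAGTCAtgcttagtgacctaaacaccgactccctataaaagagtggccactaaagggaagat
Mmp13, chr9:7272384-7272513: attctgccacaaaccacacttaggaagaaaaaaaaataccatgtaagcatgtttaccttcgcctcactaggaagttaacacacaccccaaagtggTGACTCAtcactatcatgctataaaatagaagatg
Mmp12, chr9:7347244-7347373: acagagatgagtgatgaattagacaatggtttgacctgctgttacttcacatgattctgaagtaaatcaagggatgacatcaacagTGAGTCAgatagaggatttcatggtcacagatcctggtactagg
Mmp7, chr9:7691960-7692089: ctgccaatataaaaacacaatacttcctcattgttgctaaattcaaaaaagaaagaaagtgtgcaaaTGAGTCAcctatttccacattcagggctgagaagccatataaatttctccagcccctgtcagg
Timp1, chrX:20870036-20870165: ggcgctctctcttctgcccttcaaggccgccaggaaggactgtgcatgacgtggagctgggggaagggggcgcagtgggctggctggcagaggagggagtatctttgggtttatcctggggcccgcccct

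The match begins 46, 63, 35, 44 and 63 bases before the annotated start in Mmp3, Mmp10, Mmp13, Mmp12 and Mmp7. The letters TATAAA, searched in the same way, begin 7, 29, 16 and 26 bases before it in Mmp3, Mmp10, Mmp13 and Mmp7. In Mmp7 they also begin 123 bases before it, and in Mmp12 they lie after it. All distances are from RefSeq starts, and where transcription began in this tissue was not measured. Mmp12 and Mmp7 each have 2 annotated starts, and only the promoter printed holds the match. TGANTCA reads the same on both strands, and 7.81% of 32851 RefSeq promoters of 300 bases (250 before to 50 after the start) hold it. The promoters of the proteases were printed partly for holding it, so their number is no test against that share. No match lay in that window of Timp1, whose sequence is printed as that of the inhibitor that rose, or of Mmp14 or Timp3. For Mmp2 and Mmp9 no promoter sequence was at hand, so they were not searched. A match is a description of these letters and not evidence of binding.

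Mmp3 encodes stromelysin-1, which cuts proteoglycans, laminin and fibronectin and opens other proenzymes. In VC+ mice its log2 values were 2.66, 2.76 and 2.54 at day 0, where it was low, then 5.35, 5.90, 6.45, 5.77 and 5.33 at day 2, and 9.62, 9.80, 9.64 and 13.68 at day 7. VC- mice had 3.59, 3.61 and 4.53 at day 0, 5.31, 2.91 and 2.74 at day 2, and 10.46, 14.27, 9.56 and 12.25 at day 7. Every day 7 array of either genotype was above every array of days 0 and 2, and in VC+ mice the 3 days did not overlap at all. At day 7 it was 8.03 log2 units above day 0 in VC+ mice (SE 0.98, 95% confidence interval 5.97 to 10.09, limma adjusted p = 0.000242) and 7.73 in VC- mice (SE 0.98, interval 5.67 to 9.79, limma adjusted p = 0.000441), a signal ratio of 212 in VC- mice. No ratio is given over a group in which a gene was low, since such a value lies near the bottom of the scale. The VC- day 0 values were only 0.13, 0.15 and 1.05 above their array medians, so the ratio of 212 is also measured from near the bottom. Leaving out each array in turn gave 7.03 to 8.39 in VC+ and 6.85 to 8.42 in VC- mice, all past the threshold. The lowest values came when VC+ day 7 replicate 4 or VC- day 7 replicate 2 was dropped. In a fit of only the VC- groups compared, the limma adjusted p was 0.0777.

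Day 2 is where the Mmp3 values of the genotypes stood furthest apart. VC+ arrays lay at 5.33 to 6.45 and VC- arrays at 2.74 to 5.31, so that the highest VC- array came within 0.02 of the lowest VC+ array. Against their own day 0, VC+ mice differed by 3.11 (SE 0.94, unadjusted p = 0.00376, limma adjusted p = 0.445), and VC- mice by -0.25 (SE 1.05). The VC+ difference therefore missed the threshold in the fit of all arrays. It passed with only the groups compared (limma adjusted p = 0.00312), with array quality weights (0.000877) and without the 3 arrays with high Prss2 (0.0433). These 3 fits called 48, 1286 and 8 of the 9097 genes tested, against 5 in the fit of all arrays. The difference between the 2 responses was 3.36 (SE 1.41, unadjusted p = 0.0278, limma adjusted p = 0.685), and that between VC+ and VC- mice at day 2 was 2.11 (SE 0.94, limma adjusted p = 0.372). Hoxb13, a gene of the distal gut, was 9.45 to 12.42 on 4 of the 5 VC+ day 2 arrays and 2.88 to 3.08 on the VC- day 2 arrays. On VC+ day 2 replicate 2, where Hoxb13 was 3.07, Mmp3 was 5.90. Genotype and Hoxb13 thus mostly went together at day 2, and their parts in the Mmp3 values cannot be told apart. With a term for Hoxb13 the day 2 difference was 2.86 in VC+ and 0.19 in VC- mice (limma adjusted p = 0.712 and 1). Other genes also differed in sign between the genotypes at day 2, none of them called. All 8 smooth muscle markers (median 0.99) and all 14 genes tested for matrix proteins (median 1.09) were higher in VC+ mice. Of fibroblast markers 6 of 10 were higher (median 0.05), and of colonocyte markers 4 of 8 (median -0.03). The part of tissue makeup in the Mmp3 values was not tested.

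Mmp10, stromelysin-2, is a close relative of Mmp3 with a similar range of substrates. Its values were 2.44, 2.46 and 2.45 in VC+ mice at day 0, 3.86, 4.30, 5.53, 2.47 and 3.40 at day 2, and 7.05, 6.85, 8.08 and 11.23 at day 7. The VC- arrays read 2.55, 2.65 and 2.44 at day 0, 3.22, 2.53 and 2.39 at day 2, and 7.06, 11.86, 6.41 and 10.14 at day 7. Mmp10 was thus low in both genotypes at day 0 and in VC- mice also at day 2. All 8 arrays of day 7 were above the 14 earlier ones. Day 7 exceeded day 0 by 5.85 in VC+ mice (SE 1.09, limma adjusted p = 0.0075) and by 6.32 in VC- mice (SE 1.09, limma adjusted p = 0.00311), both measured from low day 0 values. Dropping single arrays gave 4.87 to 6.33 in VC+ and 5.32 to 7.14 in VC- mice with every call kept. With only the groups compared the calls were lost (limma adjusted p = 0.0683 and 0.142). Against day 2, the VC+ rise of 4.39 (limma adjusted p = 0.0118) was 3.41 without VC+ day 7 replicate 4 (0.055).

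At day 2 all 5 VC+ arrays lay above the VC+ day 0 arrays for Mmp10, replicate 4 barely (2.47 against 2.46), and the mean difference was 1.46 (SE 1.04, limma adjusted p = 0.921). Mmp3 and Mmp10 were the 2 members of the 9 without overlap between day 2 and day 0 in VC+ mice, where 4.17% of all genes tested showed the same. In VC- mice none of the 9 did, beside 7.83% of genes. None of the 9 was called at day 2 in either genotype by limma, and 1 in VC+ and 0 in VC- mice had an unadjusted p under 0.05. Of all genes tested, 0.055% in VC+ mice and 0.011% in VC- mice were called at day 2.

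Mmp13 encodes collagenase-3, the main interstitial collagenase of rodents. Values in VC+ mice were 5.02, 7.65 and 5.67 at day 0, 6.33, 7.99, 6.51, 4.99 and 5.04 at day 2, and 10.49, 10.50, 10.40 and 14.45 at day 7. In VC- mice they were 6.44, 5.67 and 3.87 at day 0, 6.98, 7.63 and 6.18 at day 2, and 10.87, 14.44, 8.75 and 12.58 at day 7. The day 7 arrays again stood above all earlier arrays. Unlike Mmp10, and Mmp3 in VC+ mice, this gene was already above the array median before DSS, and it varied from array to array there. The change was 5.34 in VC+ mice (SE 1.18, limma adjusted p = 0.0236) and 6.33 in VC- mice (SE 1.18, limma adjusted p = 0.0046), ratios of 40.6 and 80.5. Leaving out VC+ day 0 replicate 1 (4.80, limma adjusted p = 0.106), its replicate 3 (5.12, 0.115) or VC+ day 7 replicate 4 (4.35, 0.0887) ended the VC+ call. It was also lost without the variance filter (0.0717), with a term for Xist (0.0524) and with only the groups compared (0.103). The VC- call was kept whichever array was left out, at 5.40 to 7.30, and lost with only the groups compared (0.147).

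**Figure D2:**
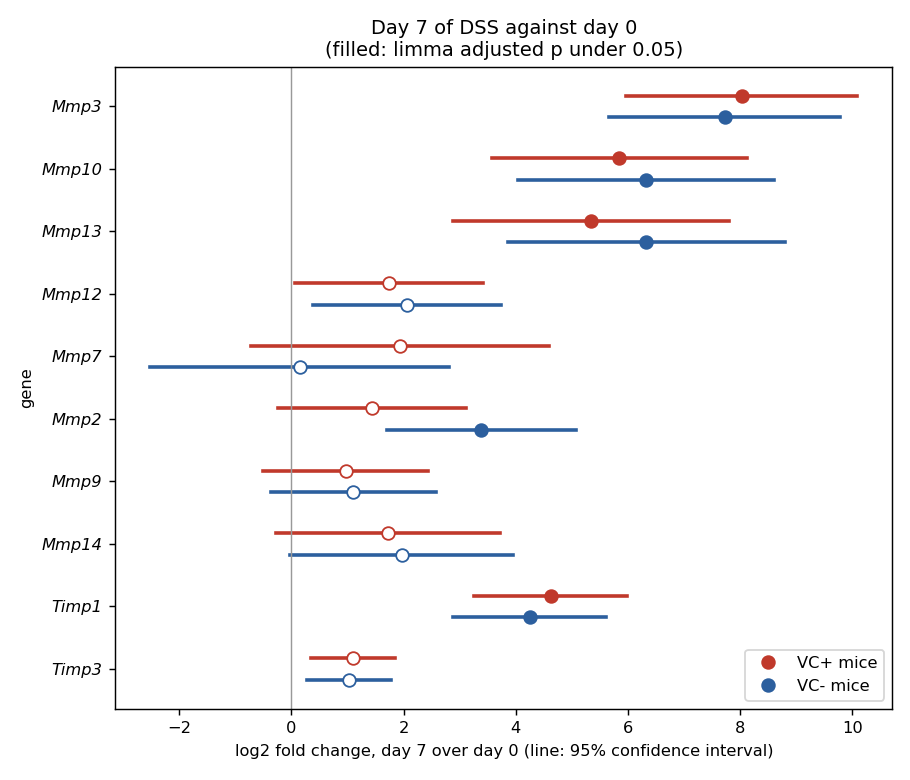
For each gene (y axis) the log2 fold change of day 7 over day 0 is plotted (x axis) with its 95% confidence interval, VC+ mice in red above VC- mice in blue, and filled where the limma adjusted p is under 0.05. Mmp3 is farthest to the right at 8.03 in VC+ and 7.73 in VC- mice, the intervals of the 2 genotypes overlap for every gene, and Mmp9, which did not pass the variance filter, is open.

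Timp1 encodes a secreted inhibitor of most metalloproteinases and lies on the X chromosome. It was 2.78, 2.81 and 2.79 in VC+ mice at day 0, where it was low, 2.78, 4.36, 3.44, 2.81 and 2.82 at day 2, and 6.87, 6.34, 7.43 and 9.02 at day 7. In VC- mice it was 3.07, 3.57 and 4.10 at day 0, 3.67, 2.47 and 2.25 at day 2, and 6.44, 9.55, 7.11 and 8.23 at day 7. The day 7 arrays did not overlap with the others in either genotype. Timp1 rose by 4.62 in VC+ mice (SE 0.65, limma adjusted p = 0.000821) and by 4.25 in VC- mice (SE 0.65, limma adjusted p = 0.00107), a ratio of 19.0 in VC- mice. Its VC- day 0 values were -0.39, 0.11 and 0.62 from their array medians, so this ratio is measured from near the bottom of the scale. Leaving out 1 array gave 4.09 to 4.98 and 3.68 to 4.71 with all calls kept. With a term for Xist the changes were 4.44 (limma adjusted p = 0.00254) and 4.07 (0.00279). In a fit of only the VC- groups the limma adjusted p was 0.12.

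Timp3 encodes the inhibitor that binds to the matrix and also blocks ADAM proteases. Its values in VC+ mice were 8.89, 8.78 and 8.80 at day 0, 8.96, 8.74, 9.14, 9.18 and 9.15 at day 2, and 9.83, 8.98, 10.33 and 10.57 at day 7. VC- mice had 9.04, 8.74 and 9.06, then 8.90, 9.47 and 8.54, then 9.10, 10.77, 10.24 and 9.78 at the same days. Day 7 and day 0 did not overlap in either genotype, but the gaps were small (8.98 against 8.89 in VC+ mice and 9.10 against 9.06 in VC- mice). The log2 fold changes were 1.10 (SE 0.36, limma adjusted p = 0.142) and 1.03 (SE 0.36, limma adjusted p = 0.0661). They passed the test without VC+ day 7 replicate 2 in VC+ mice (1.42, 0.0381). In VC- mice they passed when VC- day 7 replicate 1 (1.32, 0.00909) or VC+ day 7 replicate 2 (1.03, 0.0456) was left out and on the probe set with the highest mean (1.16, 0.0433). Array quality weights called both (0.84 in VC+ mice, 0.0175, and 0.97 in VC- mice, 0.0176). The 3 other Timp3 probe sets gave 1.02 to 1.14 in VC+ and 0.40 to 1.39 in VC- mice.

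Mmp2, gelatinase A, cuts gelatin and type IV collagen and is made mostly by fibroblasts. In VC+ mice it was 6.67, 7.23 and 7.60 at day 0, 7.42, 8.24, 8.07, 8.66 and 8.45 at day 2, and 7.54, 7.64, 9.56 and 9.67 at day 7. In VC- mice it was 7.01, 6.72 and 6.58 at day 0, 7.46, 7.11 and 6.59 at day 2, and 7.61, 12.96, 9.89 and 10.15 at day 7. The VC+ day 7 arrays fell into a lower pair, which overlapped with day 0, and a higher pair, and in VC- mice replicate 1 stayed near the earlier values. The fold change was 1.43 in VC+ mice (SE 0.80, limma adjusted p = 0.47) and 3.38 in VC- mice (SE 0.80, limma adjusted p = 0.0184), where the ratio was 10.4. The VC- call was lost when VC- day 0 replicate 2 (3.36, 0.0594) or replicate 3 (3.29, 0.0874) was left out, when the 3 arrays with high Prss2 were left out (2.35, 0.0887) and with only the groups compared (0.263). The value itself was 2.45 once VC- day 7 replicate 2 was dropped. The other Mmp2 probe set gave 1.30 in VC+ and 3.00 in VC- mice.

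At day 7 VC+ mice had 8.60 ± 1.17 and VC- mice 10.15 ± 2.19 for Mmp2 (SD, n = 4 each), a difference of -1.55 (SE 0.74, 95% confidence interval -3.11 to 0.01, limma adjusted p = 0.35). The genotypes overlapped. Leaving out single arrays gave -2.40 (without VC- day 7 replicate 1, limma adjusted p = 0.0241) to -0.62 (without VC- day 7 replicate 2, 0.86). With array quality weights it was -1.90 (0.0126), and without the 3 arrays with high Prss2 -0.97 (0.683). The mean of 10 fibroblast markers moved along with Mmp2 over the day 7 arrays. It was 9.15, 9.13, 10.35 and 10.27 on VC+ replicates 1 to 4, and 9.21, 11.89, 10.60 and 10.86 on VC- replicates 1 to 4. The mean of 6 endothelial markers did the same, at 4.84, 4.79, 6.23 and 6.98 in VC+ mice and 5.02, 8.81, 6.51 and 7.20 in VC- mice. The likeness to Mmp2 is therefore not particular to the fibroblast list. In bulk tissue, more cells of a type and more RNA per cell cannot be told apart. The part of fibroblast or endothelial cell number in the Mmp2 values was not tested.

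Mmp14 encodes MT1-MMP, a membrane-bound enzyme that cuts collagen and opens the Mmp2 proenzyme. Its values were 7.00, 6.64 and 6.68 in VC+ mice at day 0, 8.13, 4.74, 8.58, 8.40 and 8.56 at day 2, and 7.93, 7.62, 9.09 and 9.37 at day 7. They were 7.56, 7.41 and 8.19 in VC- mice at day 0, 8.10, 5.04 and 7.22 at day 2, and 7.66, 12.09, 9.25 and 9.74 at day 7. Replicate 2 of day 2 was far below its group in both genotypes. All VC+ day 7 arrays were above VC+ day 0, and the VC- groups overlapped. Day 7 minus day 0 was 1.72 in VC+ mice (SE 0.95, limma adjusted p = 0.458) and 1.97 in VC- mice (SE 0.95, limma adjusted p = 0.158). Of the 2 other probe sets, the one with the highest mean gave 1.33 and 2.27, and the other 0.44 and 2.20. The VC- change passed the test when the probe set with the highest mean stood for the gene (0.0246), with array quality weights (1.86, 0.0446) and without VC- day 7 replicate 1 (2.64, 0.0427). The probe set with the highest mean was 8.22 on VC+ day 2 replicate 2 and 8.26 on VC- day 2 replicate 2, each the lowest of its group by less than the main probe set showed.

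Mmp9, gelatinase B, is carried by neutrophils and macrophages. It read 5.30 to 5.42 in VC+ and 5.30 to 5.41 in VC- mice at day 0, 5.36 to 6.37 and 5.48 to 5.56 at day 2, so the VC- arrays of day 2 lay just above those of day 0. At day 7 it was 5.50, 5.82, 5.45 and 8.58 in VC+ mice and 5.45, 8.53, 5.37 and 6.41 in VC- mice. VC+ day 7 replicate 4 and VC- day 7 replicate 2 stood highest, the 2 day 7 arrays with high Prss2, and VC- day 7 replicate 4 followed. Its interquartile range of 0.181 was under the lowest among the genes tested, 0.246. The mean differences at day 7 were 0.97 in VC+ and 1.10 in VC- mice (limma adjusted p = 0.898 and 0.304 in the fit without the filter). The other Mmp9 probe set was at 1.73 to 1.77 on all arrays but the same pair, where it was 3.19 in VC+ and 4.31 in VC- mice.

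Mmp12, macrophage elastase, was 3.78 to 3.90 in VC+ mice at day 0, 3.78 to 4.77 at day 2, and 4.32, 5.67, 4.78 and 7.50 at day 7. In VC- mice it was 3.78, 3.92 and 5.37 at day 0, 3.77, 5.45 and 4.16 at day 2, and 4.40, 7.82, 5.30 and 8.18 at day 7. The VC+ day 7 arrays were above those of day 0, whereas the VC- groups overlapped through day 0 replicate 3. Its change was 1.74 in VC+ mice (SE 0.80, limma adjusted p = 0.345) and 2.06 in VC- mice (SE 0.80, limma adjusted p = 0.0921). Without VC- day 7 replicate 1 the VC- change was 2.74 (0.0131), and with array quality weights 2.87 (0.00474).

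**Figure D3:**
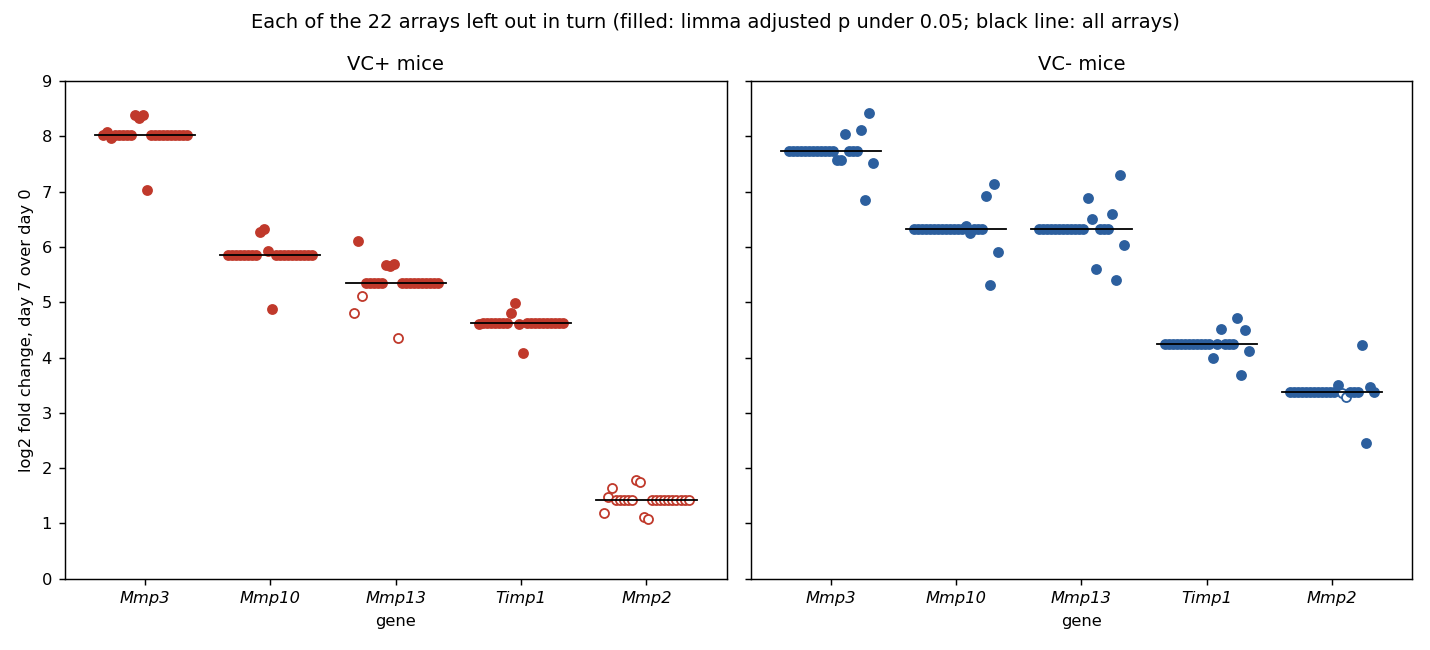
The log2 fold change of day 7 over day 0 (y axis) is shown for 5 genes with each of the 22 arrays left out in turn, in VC+ mice on the left and VC- mice on the right, filled where the limma adjusted p is under 0.05, with a black line for all arrays. Mmp3, Mmp10 and Timp1 stayed filled in both panels, Mmp13 lost its call 3 times in VC+ mice, and Mmp2 was open throughout in VC+ mice and open 2 times in VC- mice.

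Mmp7, matrilysin, was the member least like the rest. It was 2.78, 4.93 and 6.31 in VC+ mice at day 0, 2.80, 7.54, 2.92, 2.82 and 2.81 at day 2, and 7.06, 9.14, 3.27 and 6.95 at day 7. VC- mice had 3.40, 3.74 and 2.90 at day 0, 5.11, 6.40 and 2.81 at day 2, and 4.80, 3.56, 2.85 and 2.77 at day 7. All groups within a genotype overlapped. The change at day 7 was 1.94 in VC+ mice (SE 1.27, limma adjusted p = 0.551) and 0.15 in VC- mice (SE 1.27, limma adjusted p = 0.945). At day 7 VC+ mice had 6.61 ± 2.44 and VC- mice 3.49 ± 0.94 (SD, n = 4 each), a difference of 3.11 (SE 1.18, unadjusted p = 0.016, limma adjusted p = 0.303). That was the largest genotype difference of any member at day 7. It passed with array quality weights (4.33, 0.0115) and with no other alternative tried.

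In VC+ mice Mmp7 differed between arrays of 1 group together with Hoxb13. Hoxb13 was 12.42, 3.09 and 2.88 on VC+ day 0 replicates 1 to 3, and Mmp7 was at 2.78 on the first of these. At VC+ day 2 Hoxb13 was 12.42, 3.07, 9.45, 10.44 and 11.19, and Mmp7 was at 7.54 on replicate 2 and at 2.80 to 2.92 on the others. At day 7 the pattern did not hold throughout, since VC+ replicate 3 had low values of both (Mmp7 3.27, Hoxb13 3.07) and replicate 4 had intermediate values of both (6.95 and 6.88). In VC- mice Hoxb13 was 7.29, 9.13 and 9.67 at day 0, 3.08, 2.95 and 2.88 at day 2, and 3.81, 2.86, 3.03 and 9.62 at day 7, so that day and Hoxb13 partly go together. The mean of 7 markers of small intestine and Paneth cells, 3 of them low on all arrays, was 4.62, 7.97 and 7.98 at VC+ day 0 and 4.54, 7.26, 6.70, 4.84 and 5.57 at VC+ day 2, where it was high on the arrays with high Mmp7 and also on replicate 3. At day 7 it was 7.65, 7.55, 8.16 and 6.52 in VC+ mice and 7.10, 6.36, 8.40 and 6.23 in VC- mice, highest in both on replicate 3, where Mmp7 was only 3.27 and 2.85. At VC- day 2 it was 7.46, 7.65 and 7.44, with Mmp7 at 5.11, 6.40 and 2.81. With a term for Hoxb13 in the fit, the day 7 change of Mmp7 was 1.29 in VC+ and -1.07 in VC- mice, and the genotype difference at day 7 was 2.88 (limma adjusted p = 0.308).

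**Figure D4:**
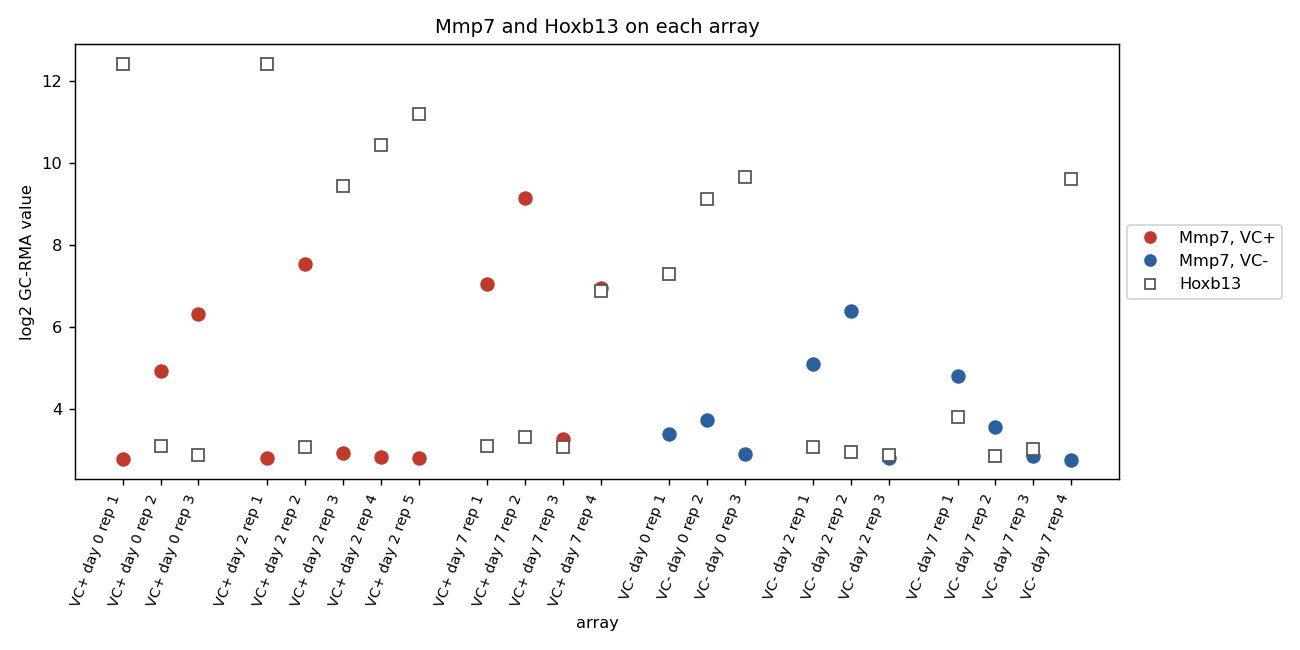
The log2 GC-RMA values (y axis) of Mmp7 (circles, VC+ red and VC- blue) and Hoxb13 (open squares) are plotted for each of the 22 arrays (x axis). In VC+ mice at days 0 and 2 Mmp7 is at 4.93 or more on the 3 arrays with Hoxb13 of 2.88 to 3.09 and at 2.78 to 2.92 on the 5 arrays with Hoxb13 of 9.45 or more.

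Set side by side, no difference of VC+ from VC- mice was called by limma in the 9 members at any day, nor in their responses at day 2 or day 7. An unadjusted p under 0.05 was reached by 0, 1 and 1 members at days 0, 2 and 7 (none, Mmp3 and Mmp7), and by 1 and 0 for the responses at days 2 and 7. These counts use 1 probe set per gene. They are not set beside the share of all genes with such an unadjusted p, so they are no result about the members. In a limma fit of all probe sets, VC+ minus VC- at day 7 was -1.28 on the Mmp14 probe set with the highest mean (unadjusted p = 0.0289). It was -1.82 on the remaining Mmp14 probe set (unadjusted p = 0.00454), and the limma adjusted p was 0.409 for both. Of all genes tested, 0.011% and 0.044% were called between genotypes at days 0 and 2, 0.022% for the day 2 responses, and none at day 7 in either way. Without overlap, VC+ was higher at day 2 in 1 member, Mmp3, and in 3.72% of all genes tested. At day 0 the VC+ arrays of Mmp3, Mmp14 and Timp1 were all below the VC- arrays, beside 10.6% of all genes tested that were lower without overlap. Their log2 differences were -1.25 (SE 1.05, limma adjusted p = 0.914), -0.94 (SE 1.02, 0.971) and -0.79 (SE 0.70, 0.934). For Mmp14 this held on the main probe set only. At day 0 the genotypes overlapped on the probe set with the highest mean (VC+ 8.42 to 8.86, VC- 8.79 to 9.1). They also overlapped on the remaining Mmp14 probe set (3.03 to 3.16 and 3.15 to 3.22). For the members that rose in both genotypes, the response of VC+ minus that of VC- mice at day 7 was 0.30 for Mmp3 (95% confidence interval -2.61 to 3.21), -0.47 for Mmp10 (-3.70 to 2.76), -0.99 for Mmp13 (-4.47 to 2.50) and 0.37 for Timp1 (-1.56 to 2.30). These intervals leave room for differences of several fold in either direction.

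Day 7 was also compared with day 2. Mmp3, Mmp10, Mmp13 and Timp1 rose in VC+ mice by 4.92, 4.39, 5.29 and 4.17, beside 4.76% of all genes tested that rose (limma adjusted p = 0.00341, 0.0118, 0.00738 and 0.000408). The same 4 rose in VC- mice by 7.98, 6.15, 4.73 and 5.04 (0.00066, 0.005, 0.031 and 0.00067), where 3.45% of all genes tested rose. The median change of 8 smooth muscle markers from day 2 to day 7 was -1.71 in VC+ mice, where that of all genes tested was 0.01. In VC- mice it was -0.01, beside -0.07 for all genes. By limma 7 of the 8 were called lower in VC+ mice, also without the 3 arrays with high Prss2, and none in VC- mice. The share of all genes called lower is not given, so the count is a description only. Without overlap with day 2, 4 members were higher in VC+ and 5 in VC- mice, beside 7.87% and 6.58% of all genes tested. Mmp2 rose by 3.10 in VC- mice (SE 0.80, limma adjusted p = 0.0355). The VC- count of 5 became 3 without VC- day 2 replicate 2 or 3 or VC- day 7 replicate 2 or 4, when Mmp2 and Mmp13 were lost, and 8 without VC- day 7 replicate 1. In a fit of only the groups compared none of the 5 was called in VC- mice (limma adjusted p = 0.183 to 0.425), and with the replicate block or a term for Xist Mmp2 (0.0782 and 0.0915) and Mmp13 (0.0527 and 0.12) were lost. Without the 4 arrays named first Mmp2 was 3.13, 2.87, 2.16 and 3.10 (0.107, 0.148, 0.0755 and 0.0671), and Mmp13 was 5.08, 4.35, 3.80 and 4.42 (0.0804, 0.137, 0.0832 and 0.0682).

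Within day 7 most members were highest on the same array of a genotype, but their lowest arrays differed. VC+ replicate 4 was the highest of its group for 9 of the 10 genes, all but Mmp7, and VC- replicate 2 for 8 of 10, all but Mmp7 and Mmp12. VC- replicate 1 was the lowest of its group for Mmp2, Mmp12, Mmp14, Timp1 and Timp3. VC- replicate 3 was the lowest for Mmp3, Mmp9, Mmp10 and Mmp13, and VC- replicate 4 for Mmp7. In VC+ mice the lowest array was replicate 1 for 3 members, replicate 2 for 4 and replicate 3 for 3. The mean of 7 neutrophil markers was 4.88, 5.98, 5.10 and 6.86 on VC+ replicates 1 to 4 and 4.40, 8.51, 4.61 and 5.07 on VC- replicates 1 to 4, against 2.72 to 2.79 in VC+ and 2.73 to 2.75 in VC- mice at day 0. Only 2 of these 7, S100a8 and S100a9, passed the variance filter, and Mpo was low on all arrays. The rise of the group means from day 0 thus rests largely on those 2 genes. The mean of 12 macrophage and monocyte markers was 8.52, 8.46, 9.01 and 9.94 in VC+ mice and 7.93, 10.11, 9.12 and 9.33 in VC- mice, against 7.18 to 7.35 and 7.17 to 7.42 at day 0. The arrays highest for the proteases were thus also highest for both leukocyte lists, carried the Prss2 signal and had the lowest Pparg of their groups (6.26 in VC+ and 7.39 in VC- mice). The part of leukocyte number in the results was not tested. Without the VC+ and VC- day 7 arrays with high Prss2, an alternative chosen after the data were seen, Mmp3 was 7.03 and 6.85, Mmp10 4.87 and 5.32, Mmp13 4.35 and 5.40, and Timp1 4.09 and 3.68 in VC+ and VC- mice, and each was still called.

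Over the 22 arrays, which share the day effect, Mmp3 correlated with Mmp10 (Pearson r = 0.971), Timp1 (0.960) and Mmp13 (0.9), and Mmp10 with Timp1 (0.958). The correlations of Mmp7 with the other members were -0.417 to 0.353. Among genes outside the pathway lists (cell type markers were kept in), those most like Mmp3 were Lcn2 (0.965), Ctps (0.959) and Socs3 (0.947). Lcn2 encodes an iron-sequestering protein of inflamed epithelium and neutrophils, and Socs3 a feedback inhibitor of cytokine signaling. Closest to Timp1 were Cemip (0.975), Socs3 (0.973) and the neutrophil chemokine gene Cxcl1 (0.973). Mmp10 was closest to the monocyte chemokine gene Ccl2 (0.969), the scavenger receptor gene Msr1 (0.963) and Cemip (0.962). Ccl2 (0.944) also came first for Mmp13, before Ccr1 (0.943) and Cxcl5 (0.943). Mmp2 was closest to Pdgfrb (0.976), a receptor of pericytes and fibroblasts, Emilin1 (0.968) and Lhfp (0.964). For Mmp7 no gene exceeded 0.764.

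None of the other metalloproteinases, inhibitors and activators passed the test at day 7 against day 0. Of 15 other metalloproteinase genes 10 had a probe set and 4 were tested, none of which was called at day 7 against either earlier day, and 5 were low on all arrays (Mmp1a, Mmp1b, Mmp16, Mmp20 and Mmp24). Mmp8, the collagenase of neutrophils, averaged 5.48 in VC+ and 4.47 in VC- mice at day 7, against 2.20 and 2.21 at day 0 (log2 fold changes 3.27 and 2.26, limma adjusted p = 0.314 and 0.277). None of 4 other inhibitors tested was called, Timp2 among them (-0.10 in VC+ and 0.64 in VC- mice). None of 5 activators tested was called either, and the urokinase receptor gene Plaur came closest (1.69 in VC+ mice, limma adjusted p = 0.0811, and 1.38 in VC- mice, 0.0597). Without the 3 arrays with high Prss2, 1 activator was called in VC+ mice. Against day 2, Plaur rose by 1.73 in VC+ mice (0.0178) and the protease inhibitor gene Tfpi2 fell by 1.69 in VC- mice (0.0263). Plau, Plg, Elane and Ctsg were low on all arrays.

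The related ADAM and ADAMTS proteases included 10 tested genes. Adamts4 and Adamts9, which cut aggrecan and versican, rose in both genotypes, Adamts4 by 4.88 in VC+ and 5.71 in VC- mice (limma adjusted p = 0.0074 and 0.0014) and Adamts9 by 2.83 and 3.32 (0.0182 and 0.00375). Adamts1 rose by 4.51 in VC- mice (0.0101). Of 14 genes for matrix proteins, none was called in VC+ mice, whereas 7 rose in VC- mice (Col1a1, Col4a1, Col4a2, Hspg2, Lamc1, Sparc and Vcan), by 1.76 for Sparc to 2.77 for Vcan, though all 14 had a positive fold change in both genotypes (medians 1.19 and 2.18). Without the 3 arrays with high Prss2 the counts were 0 and 2, and none of the 14 was called for the difference in response between genotypes. Among 10 genes for cytokines and transcription factors known to induce metalloproteinases, 3 rose in VC+ and 6 in VC- mice. Without the 3 arrays with high Prss2 these counts were 3 and 4. Il6 rose by 7.63 in VC+ and 7.33 in VC- mice, Il1b by 7.20 and 5.76, and Il11 by 4.39 and 4.72, and in VC- mice Hgf, Junb and Tgfb1 rose as well, by 2.70, 2.48 and 1.83.

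**Figure D5:**
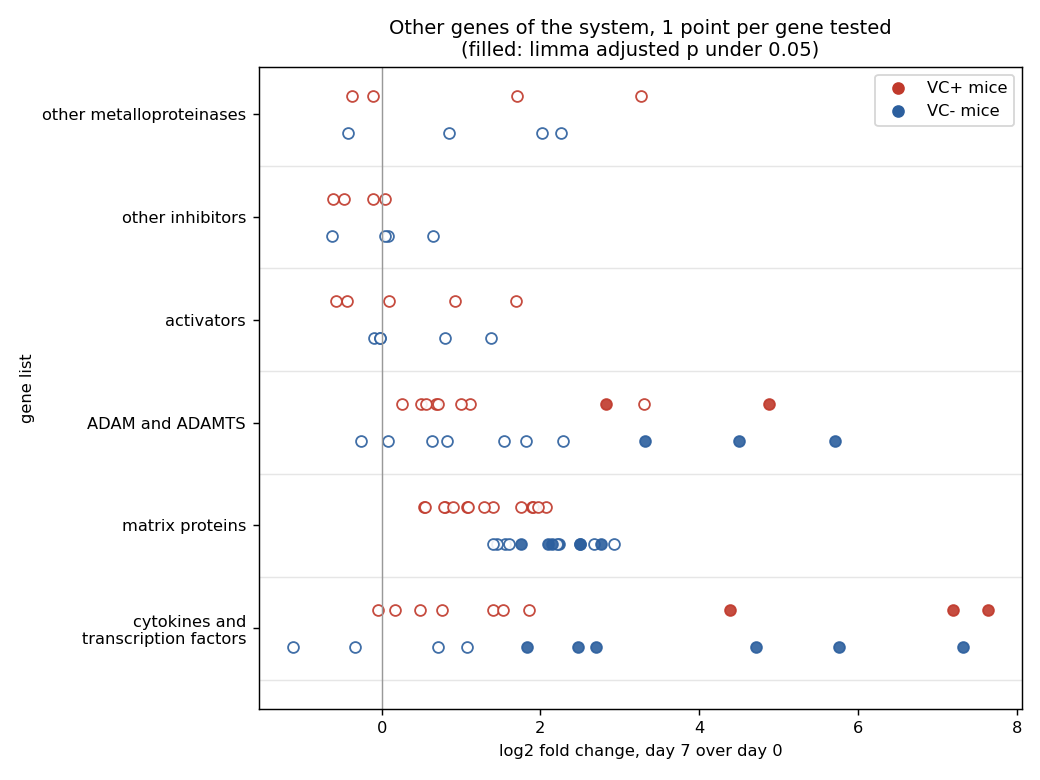
Each point is the log2 fold change of day 7 over day 0 (x axis) of 1 tested gene in 6 lists (y axis), VC+ mice in red above VC- mice in blue, filled where the limma adjusted p is under 0.05. No point is filled among the other metalloproteinases, other inhibitors or activators, and the filled points farthest to the right are Il6 and Il1b.

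Markers of other cell types give the setting of these values. S100a8 and S100a9, the 2 neutrophil markers that passed the filter, had fold changes of 9.16 and 9.31 in VC+ and 7.97 and 8.28 in VC- mice (limma adjusted p of 0.000556 at most), and Mpo was low on all arrays. The macrophage and monocyte list had 3 of 12 genes called higher in VC+ and 9 of 12 in VC- mice, but 4 and 3 without the 3 arrays with high Prss2. The fibroblast list had 0 of 10 and 1 of 10 (Pdgfrb, 2.42 in VC- mice). None of 8 smooth muscle or 6 endothelial markers was called at day 7 against day 0. Of 8 colonocyte markers tested 1 was lower in VC- mice (Slc26a3, -2.88) and 0 in VC+ mice. Neither Pdgfrb nor Slc26a3 was called without the 3 arrays with high Prss2. The part of cell makeup in the changes of the members was not tested.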

How the data were processed

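RNA from homogenized colonic tissue was hybridized to Affymetrix Mouse 430 2.0 arrays. The deposited log2 values were made by the authors with GC-RMA in R 2.10.1, which corrects background, normalizes the arrays together and gives 1 value per probe set. The genome build is not given in the sources used here. Of 45101 probe sets, 34958 carried a single gene symbol, and 932 with several were left out. A gene was represented by its most variable probe set (by interquartile range over the 22 arrays), and the upper 50% of genes by that measure were tested, after the study's filter. limma 3.58.1 in R 4.3.3 fitted 6 group means to 22 arrays, with empirical Bayes moderation, 2-sided tests and Benjamini-Hochberg adjustment within each comparison. The procedure was tested on simulated data. Array correlations were 0.9035 to 0.9961, and no 2 arrays were identical. Precision is limited by the number of arrays.

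The members and lists were chosen with earlier results of these data known. Genes named are the members, list genes that were called, low on all arrays or closest to the threshold (Mmp8, Timp2 and Plaur were named after their values were seen), Pparg, Hoxb13, Prss2, Xist, and for each member up to 3 genes with the largest correlation. Alternatives covered the filter, the probe set, the arrays fitted, array weights, normalization, a replicate block, terms for Hoxb13 and Xist, and left-out arrays.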

Additional observations from a re-analysis of the deposited data

Results flagged for a closer look

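Within groups of 4 or 5 arrays, a value was singled out where its gap to the nearest other array took up most of the group's range (Dixon's test at 95%). This held for 7 of 30 pairs of a gene and a group. The pairs share arrays and many members move together, so this count cannot be set against the 5% of a single test. At VC+ day 7, replicate 4 stood above the other 3 arrays for Mmp3 (13.68, others 9.62 to 9.80), Mmp9 (8.58, others 5.45 to 5.82) and Mmp13 (14.45, others 10.40 to 10.50). At VC+ day 2, replicate 2 stood above the other 4 arrays for Mmp7 (7.54, others 2.80 to 2.92) and Mmp9 (6.37, others 5.36 to 5.45), and below them for Mmp14 (4.74, others 8.13 to 8.58). VC+ day 2 replicate 1 stood above the rest for Mmp12 (4.77, others 3.78 to 3.84). These values fall on 3 arrays. No value of VC- day 7 was singled out.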

How the results depend on the processing

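No called value reversed its direction under any alternative. Among values that were not called, the sign changed in 55 cases with 1 array left out and in 40 with another setting. With only the groups compared, 1 member was called at day 2 in VC+ mice, 2 at day 7 against day 0 in VC+ and 0 in VC- mice, and 0 at day 7 against day 2 in VC- mice, in fits with fewer arrays. With array quality weights the counts were 2 at day 2 in VC+ mice, 8 at day 7 in VC- mice, 3 between genotypes at day 7 (Mmp2, Mmp7 and Mmp12) and 1 for the day 7 response (Mmp2, -2.42, limma adjusted p = 0.0312). VC- day 7 replicate 2 had the lowest weight, 0.092. At day 2 in VC+ mice 1286 of 9097 genes were called with weights, 48 with only the groups compared and 5 in the main fit. The other counts here have no share of all genes beside them, so they are no result about the members. Without the 3 arrays with high Prss2, or the 2 of day 7 alone, 1 member was called at day 2 in VC+ mice. A term for Xist gave 3 members at day 7 against day 2 in VC- mice. The causes were not tested.

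Leaving out each array in turn gave 3 to 5 members at day 7 against day 0 in VC+ and 4 to 8 in VC- mice, 3 to 5 and 3 to 8 against day 2, and 0 to 1 between genotypes at day 7.

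Replicate numbers were not taken as pairs. Once each group's mean was subtracted, 18 of 48 same-number pairs and 36 of 152 others correlated above 0.1 (means 0.084 and -0.027). With the replicate block, 3 members in place of 5 were called at day 7 against day 2 in VC- mice, Mmp2 (2.92, limma adjusted p = 0.0782) and Mmp13 (4.46, 0.0527) being lost, and no other call changed.

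With 3 to 5 arrays a group, the standard error of a genotype difference ran between 0.33 (Timp3 at day 7) and 1.36 log2 units (Mmp7 at day 0), which sets what could be detected.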
